A study of Mus musculus with 9 samples.

Results

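The 7 genes described here encode the molecules with which endothelial cells catch leukocytes from the blood and pass them through the vessel wall. They are the selectins Sele and Selp, the immunoglobulin-family ligands Vcam1, Icam1 and Icam2, and the junctional adhesion molecules Jam2 and Jam3. They were chosen by name from the 16873 genes measured in mouse heart and were read against Pecam1 and Cdh5, 2 genes that endothelial cells express throughout the vascular tree. Levels were given as FPKM, the fragments mapped to a gene, scaled to the length of its transcripts and to the mapped fragments of the library. All 7 genes had a mean of at least 1 FPKM over the 9 libraries and entered the tests, as 12485 genes did in all.

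RNA from whole hearts was sequenced in 3 groups of 3 libraries. The groups were Sting-/- mice given doxorubicin (Sting-/- DOX), wild-type mice given doxorubicin (WT DOX) and wild-type mice given saline (WT saline). Doxorubicin, an anthracycline used against cancer, can damage the heart, and the series used low doses of it to model the chronic form of this toxicity. Sting1 encodes STING, the adaptor that passes the signal of the DNA sensor cGAS on to interferon and inflammatory genes, and the series asks what this pathway does in cardiac endothelial cells during the toxicity. The Sting-/- label names no promoter or cell type to which the loss was limited. The labels state no dose for these libraries, nor the age or strain of the mice, and do not say whether each library was made from its own animal. The p-values therefore rest on a spread between libraries that may be technical. Untreated Sting-/- hearts and hearts with an endothelial-specific loss of Sting were not analysed here. The genotype without the drug is therefore part of every difference between Sting-/- DOX and the wild-type groups, and no interaction could be tested.

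Leukocyte recruitment runs in steps. Selectins on the endothelial surface bind sugar-bearing ligands such as PSGL-1 on leukocytes and let the cells roll, and VCAM-1 and the ICAMs then hold them firmly through leukocyte integrins. ICAM-2 is made by resting endothelium, whereas E-selectin, VCAM-1 and ICAM-1 are known for their induction by TNF and IL-1 through NF-kB. JAM-B (Jam2) and JAM-C (Jam3) sit at endothelial junctions, bind each other, and take part in the passage of leukocytes through them. Several of these genes are not restricted to endothelium: P-selectin is also stored in platelets, and ICAM-1 and VCAM-1 are also made by leukocytes and stromal cells.

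Read totals were not given, and the steps between low values put the depth of Sting-/- DOX at about 8400000 to 8750000 fragments, that of WT DOX at 13350000 to 14000000 and that of WT saline at 11650000 to 11950000. Sting1 was listed at 0.06, 0 and 0 FPKM in Sting-/- DOX, against 17.49, 17.96 and 17.76 FPKM in WT DOX and 5.10, 5.43 and 5.93 FPKM in WT saline. The groups differed widely in the RNA of other cell types. The summed FPKM of 10 cardiomyocyte genes ranged from 10667 to 11217 in Sting-/- DOX, 48447 to 51454 in WT DOX and 75079 to 76127 in WT saline. For 20 endothelial genes, Pecam1 and Cdh5 among them, the sums were 2328 to 2494 in Sting-/- DOX, 557 to 568 in WT DOX and 538 to 547 in WT saline. For 12 fibroblast genes they were 8440 to 8906 in Sting-/- DOX, 1519 to 1565 in WT DOX and 1038 to 1066 in WT saline. FPKM is relative to the library total, and in bulk tissue fewer cells of a type and less RNA per cell cannot be told apart. The part of this make-up in the results for the adhesion genes was not tested, apart from the comparison with Pecam1 and Cdh5 given further on.

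In wild-type hearts, doxorubicin went with higher Selp, Sele, Icam1 and Vcam1 and with lower Jam2 and Jam3, while Icam2 did not pass the test. On the scale of log2(FPKM + 1), the middle one of the 7 was Vcam1 at 1.02, against a median of 0.13 over all genes tested. The count of 4 members higher in WT DOX than in WT saline stood beside 45.3% of all genes, and the count of 2 lower stood beside 21.5% of all genes, at an adjusted p under 0.05 in limma. Both counts were near these shares. The genes differed from one another in direction and size. The log2 difference was 2.57 for Selp, 0.076 for Icam2 and -0.54 for Jam2.

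With the loss of Sting the order of the genes was another one. Compared with WT DOX, Icam2, Icam1, Jam3, Jam2 and Vcam1 were higher in Sting-/- DOX and both selectins were lower. The 5 members higher stood beside 54.1% of all genes and the 2 lower beside 29.7%, again near those shares, and the middle member was Jam2 at 1.33, against a median of 0.25 over all genes. Compared with WT saline, 6 members were higher in Sting-/- DOX, beside 63.0% of all genes, and the middle member was Vcam1 at 1.61, against 0.49. No member was called lower, beside 25.9% of all genes. All 7 fold changes were above 0 in limma, although Sele turned to -0.33 under quantile normalization with an adjusted p of 0.0096. The comparison of Sting-/- DOX with WT DOX and that of WT DOX with WT saline share the WT DOX libraries, so the values of the genes are given side by side and not related to each other.

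**Figure D1:**
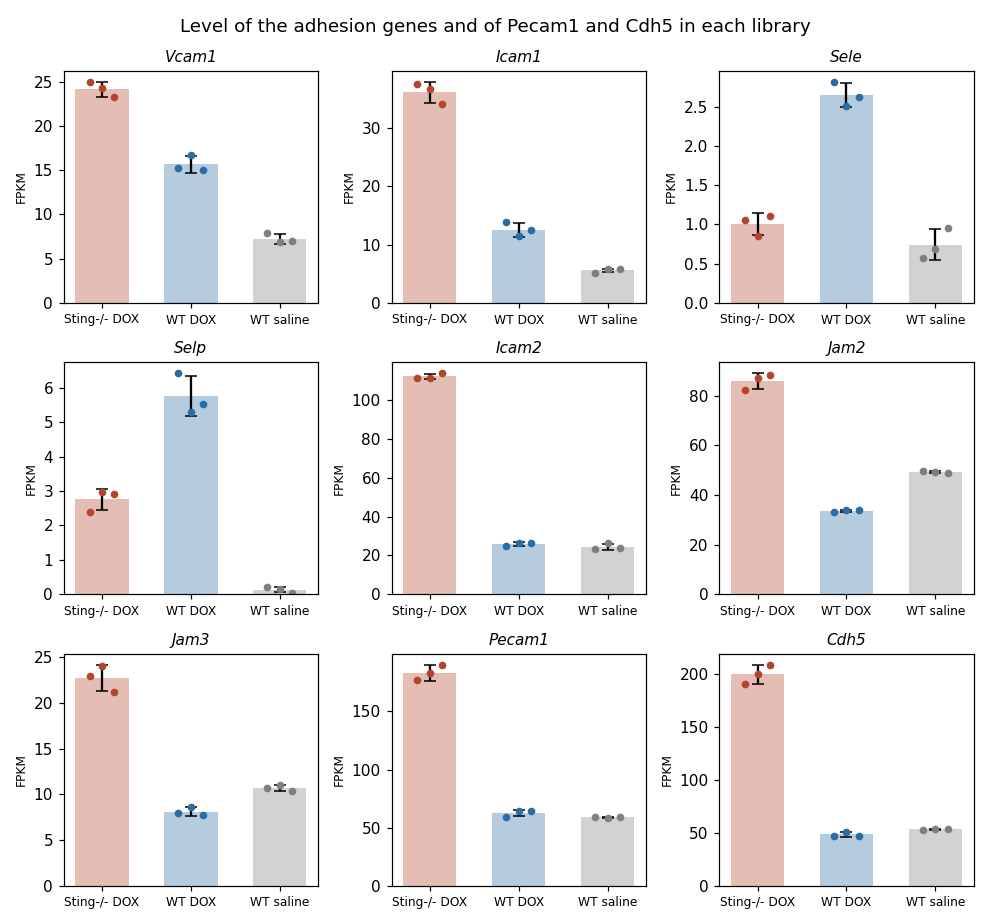
FPKM of the 7 adhesion genes and of Pecam1 and Cdh5, with 1 panel per gene, bars for group means, error bars for the SD and points for the 3 libraries of each group (Sting-/- DOX, WT DOX and WT saline from left to right). Sele and Selp stand highest in WT DOX, while the other 7 panels stand highest in Sting-/- DOX.

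Sele encodes E-selectin, which endothelial cells make after activation by cytokines. It had 1.06, 0.85 and 1.11 FPKM in Sting-/- DOX, against 2.82, 2.51 and 2.63 FPKM in WT DOX and 0.57, 0.69 and 0.96 FPKM in WT saline. Every WT DOX library lay above all others, and the ranges of Sting-/- DOX and WT saline overlapped. Sele was higher in WT DOX than in WT saline by 1.08 (SE 0.10, adjusted p = 1.82e-06) and lower in Sting-/- DOX than in WT DOX, at -0.87 (SE 0.10, adjusted p = 5.98e-06). Between Sting-/- DOX and WT saline the difference was 0.21 with a 95% interval of ± 0.22 and did not pass (adjusted p = 0.0701). It passed without the third WT saline library, at 0.30 (adjusted p = 0.0181), and without the second Sting-/- DOX library, at 0.27 (adjusted p = 0.0393).

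Selp encodes P-selectin, which endothelial cells keep in storage granules and move to the surface on stimulation. It had 2.40, 2.96 and 2.91 FPKM in Sting-/- DOX, against 6.42, 5.31 and 5.53 FPKM in WT DOX and 0.21, 0.15 and 0.05 FPKM in WT saline. The 3 groups were fully separate, with WT saline close to 0. At the estimated depth those WT saline values stand for about 8.2, 6 and 2 fragments, whereas the Sting-/- DOX values stand for about 70, 85 and 82 fragments and the WT DOX values for about 300, 240 and 250 fragments. The ratio of mean FPKM was 42.1 for WT DOX over WT saline and 20.2 for Sting-/- DOX over WT saline, and both rest on these few saline fragments. The pseudocount of 1 FPKM shrinks the change of a gene this low, and on that log2 scale Selp was higher in WT DOX than in WT saline by 2.57 (SE 0.097, adjusted p = 5.02e-10). It was lower in Sting-/- DOX than in WT DOX, at -0.85 (SE 0.097, adjusted p = 4.71e-06), and higher in Sting-/- DOX than in WT saline, at 1.72 (adjusted p = 3.70e-09).

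The balance of the 2 selectins also differed. Selp over Sele in FPKM was 2.79 ± 0.626 in Sting-/- DOX, 2.16 ± 0.0969 in WT DOX and 0.213 ± 0.158 in WT saline (SD, n = 3 each). E-selectin was thus the more abundant transcript in each saline heart library and P-selectin the more abundant one in each doxorubicin library, while the ranges of the 2 doxorubicin groups overlapped.

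Because platelets also carry Selp, platelet and megakaryocyte genes were read beside it. Their summed FPKM over 10 genes ranged from 107 to 118 in Sting-/- DOX, 176 to 214 in WT DOX and 38.9 to 39.4 in WT saline, so this sum also stood highest in WT DOX. Its largest term was Pf4, a platelet chemokine that macrophages can also express, with means of 79.9 FPKM in Sting-/- DOX, 177 in WT DOX and 34.6 in WT saline. Itga2b and Gp9, which encode platelet surface receptors, had another order: Itga2b averaged 2.83 FPKM in Sting-/- DOX, 0.707 in WT DOX and 0.170 in WT saline, and Gp9 averaged 5.47 FPKM in Sting-/- DOX, 1.10 in WT DOX and 0.353 in WT saline. Of the 6 tested genes of the list, 3 passed as higher and 3 as lower in Sting-/- DOX than in WT DOX. No gene of the list was at 0 in all 3 libraries of a group, and the part of platelets in the Selp values was not tested.

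The promoter sequences of Sele and Selp are shown because these 2 genes were the members that stood highest in WT DOX. They lie on the same strand of chromosome 1, and each line gives the 250 bases before the annotated transcription start from RefSeq (GRCm38.p6, + strand), at chr1:164047984-164048233 for Sele and chr1:164115014-164115263 for Selp. Capitals mark matches to TGANTCA and to TATAAA, the TATA box. TGANTCA is looser than the AP-1 consensus, which allows only C or G at the free base N.
Sele: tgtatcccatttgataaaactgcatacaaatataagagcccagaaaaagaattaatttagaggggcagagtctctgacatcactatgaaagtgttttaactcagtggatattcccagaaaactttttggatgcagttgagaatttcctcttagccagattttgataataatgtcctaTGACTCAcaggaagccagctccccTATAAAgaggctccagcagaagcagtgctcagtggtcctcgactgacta
Selp: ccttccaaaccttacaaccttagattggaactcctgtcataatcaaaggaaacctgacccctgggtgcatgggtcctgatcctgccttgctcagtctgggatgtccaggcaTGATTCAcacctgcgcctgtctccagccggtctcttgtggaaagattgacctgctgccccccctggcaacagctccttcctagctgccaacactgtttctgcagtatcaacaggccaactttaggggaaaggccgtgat
In Sele, TGACTCA lay 73 to 67 bases before the start and TATAAA 49 to 44 bases before it. In Selp, TGATTCA lay 139 to 133 bases before the start, and with T at the free base it is not the AP-1 consensus. Searched on both strands, TGANTCA was present in 6.75% and TATAAA in 12.4% of 32851 promoter windows of this length, so neither is rare. The NF-kB consensus, searched as 1 pattern without mismatches and present in 7.25% of windows, had no match in either window. Sites that depart from this pattern were not sought. The Sele window holds ggatattccc, which on the other strand departs from it at 1 base. GGAAATTCC, marked below for Icam1, had no match in Sele or Selp. The motifs were chosen with the sequences already seen, and a match describes letters, not binding.

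Vcam1 encodes the endothelial ligand of the integrin VLA-4. It had 24.93, 24.28 and 23.26 FPKM in Sting-/- DOX, against 15.23, 16.72 and 15.01 FPKM in WT DOX and 7.87, 6.84 and 7.01 FPKM in WT saline. The groups did not overlap and formed 3 steps. Vcam1 was higher in WT DOX than in WT saline by 1.02 (SE 0.062, adjusted p = 3.77e-08), and higher in Sting-/- DOX than in WT DOX by 0.60 (SE 0.062, adjusted p = 1.98e-06). That second step was the smallest of the 5 higher members.

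Icam1 encodes the ligand of the integrins LFA-1 and Mac-1. It had 37.6, 36.6 and 34.1 FPKM in Sting-/- DOX, against 13.8, 11.4 and 12.5 FPKM in WT DOX and 5.19, 5.74 and 5.73 FPKM in WT saline. Again the libraries formed 3 separate steps, with Sting-/- DOX at 2.87 times the mean of WT DOX and 6.50 times that of WT saline. The log2 differences were 1.05 for WT DOX against WT saline (SE 0.070, adjusted p = 8.10e-08), 1.45 for Sting-/- DOX against WT DOX (adjusted p = 1.31e-09) and 2.50 for Sting-/- DOX against WT saline (adjusted p = 5.17e-12). The FPKM ratio of Icam1 over Vcam1 was 1.49 ± 0.0250 in Sting-/- DOX, above every wild-type library, and 0.806 ± 0.114 in WT DOX and 0.772 ± 0.0981 in WT saline, with overlapping ranges.

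The Icam1 promoter is shown for the same 250-base window (RefSeq, GRCm38.p6, + strand, chr9:21015690-21015939), with capitals for GGAAATTCC, the core of the NF-kB site known from the human ICAM1 promoter.
Icam1: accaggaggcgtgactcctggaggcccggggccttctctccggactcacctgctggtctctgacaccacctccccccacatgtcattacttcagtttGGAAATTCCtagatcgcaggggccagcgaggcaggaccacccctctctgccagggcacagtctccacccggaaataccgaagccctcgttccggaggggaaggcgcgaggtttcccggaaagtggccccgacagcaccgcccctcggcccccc
The match lay 153 to 145 bases before the start. On either strand GGAAATTCC was present in 0.286% of the 32851 windows. The motif is longer than TGANTCA and TATAAA, so its share cannot be compared with theirs. It can share bases with the NF-kB consensus, which had no match in the Icam1 window.

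Icam2 encodes a second ligand of LFA-1 that resting endothelial cells already carry. It had 111, 111 and 114 FPKM in Sting-/- DOX, against 24.7, 26.5 and 26.2 FPKM in WT DOX and 23.4, 26.3 and 23.7 FPKM in WT saline. Sting-/- DOX stood far above both wild-type groups, and the wild-type ranges overlapped. The difference between WT DOX and WT saline was 0.076 with a 95% interval of ± 0.11 (adjusted p = 0.197), and it turned to -0.17 with an adjusted p of 0.00832 when libraries were scaled by median ratios. It passed without the second WT saline library, at 0.13 (adjusted p = 0.0309). Between Sting-/- DOX and WT DOX the difference was 2.08 (SE 0.050, adjusted p = 2.59e-12), the largest of the 7.

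The junctional genes were the only members that were lower in WT DOX than in WT saline. Jam2 had 82.4, 87.2 and 88.2 FPKM in Sting-/- DOX, against 33.1, 33.8 and 33.9 FPKM in WT DOX and 49.8, 49.4 and 48.9 FPKM in WT saline. WT DOX was the lowest group without overlap, at -0.54 against WT saline (SE 0.039, adjusted p = 1.51e-07), and Sting-/- DOX was the highest, at 1.33 against WT DOX (adjusted p = 1.42e-11) and 0.79 against WT saline (adjusted p = 9.93e-10). Jam3 followed the same order of groups, with 22.9, 24.1 and 21.2 FPKM in Sting-/- DOX, against 7.94, 8.65 and 7.79 FPKM in WT DOX and 10.69, 10.98 and 10.38 FPKM in WT saline. Its differences were -0.36 for WT DOX against WT saline (SE 0.060, adjusted p = 0.000221), 1.38 for Sting-/- DOX against WT DOX (adjusted p = 5.19e-10) and 1.02 for Sting-/- DOX against WT saline (adjusted p = 5.57e-09). Jam2 over Jam3 was 3.80 ± 0.323 in Sting-/- DOX, 4.14 ± 0.223 in WT DOX and 4.62 ± 0.110 in WT saline, with overlapping ranges in the 2 doxorubicin groups.

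**Figure D2:**
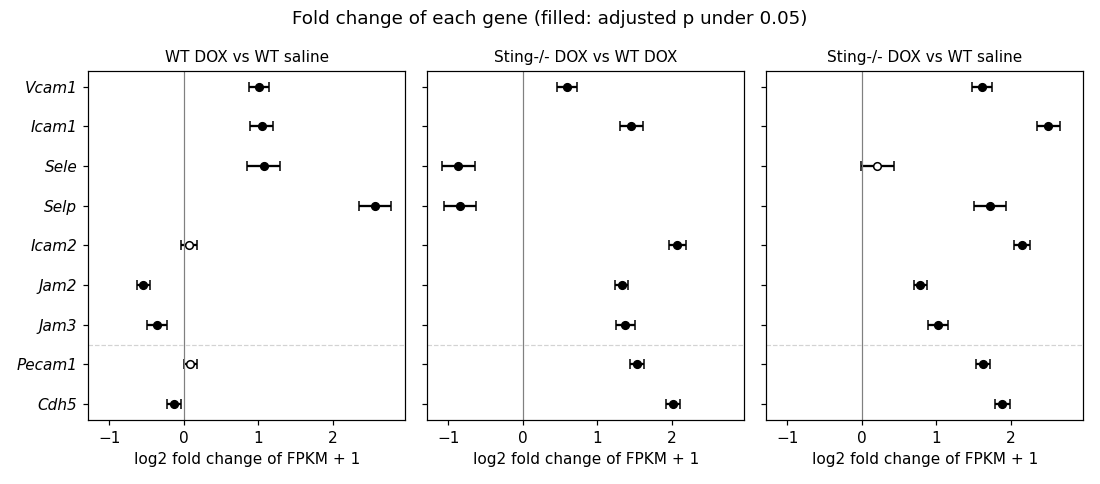
Log2 fold change of FPKM + 1 for each gene in 3 comparisons (panels), with bars for the 95% interval from limma and filled points where the adjusted p was under 0.05. Sele and Selp lie right of 0 in WT DOX against WT saline and left of 0 in Sting-/- DOX against WT DOX, and the Jam genes lie on the opposite sides.

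Pecam1 and Cdh5, the reference for endothelial RNA, themselves differed between the groups. Pecam1, an adhesion molecule of endothelial contacts, averaged 183 ± 6.73 FPKM in Sting-/- DOX, 62.8 ± 2.77 in WT DOX and 58.8 ± 0.429 in WT saline (SD, n = 3 each). Cdh5, which encodes VE-cadherin, averaged 199.9 ± 8.85 FPKM in Sting-/- DOX, 48.7 ± 2.19 in WT DOX and 53.3 ± 0.346 in WT saline. The 2 genes thus stood at 2.92 and 4.10 times their WT DOX means in Sting-/- DOX, whereas the 2 wild-type groups were close. Between WT DOX and WT saline, Pecam1 did not pass at 0.092 (adjusted p = 0.0734) and turned to -0.16 under median-ratio scaling, and Cdh5 was lower at -0.13 (adjusted p = 0.0220). Pecam1 passed as higher without the first WT DOX library, at 0.13 (adjusted p = 0.0192), and with sample weights, at 0.10 (adjusted p = 0.0264). The Cdh5 call was lost without the third WT saline library (-0.12, adjusted p = 0.0609) and without the first or the third WT DOX library (both -0.11, adjusted p = 0.0707 and 0.0824). Pecam1 over Cdh5 was 0.917 ± 0.00728 in Sting-/- DOX, 1.29 ± 0.0598 in WT DOX and 1.10 ± 0.00658 in WT saline, so which of them serves as the reference matters for small differences.

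Each adhesion gene was next expressed as a percentage of the geometric mean of Pecam1 and Cdh5, and tested after the mean log2(FPKM + 1) of the pair was subtracted from every gene in each library. In WT DOX against WT saline this changed little: 4 members were higher, beside 45.1% of all genes, and 2 lower, beside 18.9%, each count near its share. In Sting-/- DOX against WT DOX, 1 member was higher, beside 3.27% of all genes, and 6 were lower, beside 93.4%. The count of 6 lower is close to that share, since nearly every gene in the heart stood lower against Pecam1 and Cdh5 in that comparison, and the middle member, Jam2 at -0.44, lay above the median of all genes at -1.52. In Sting-/- DOX against WT saline, 2 members were higher, beside 8.50% of all genes, and 3 were lower, which is below the 85.0% of all genes; the middle member was Vcam1 at -0.14, against a median of -1.26.

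On this scale the selectins and Vcam1 were the members furthest below their WT DOX level in Sting-/- DOX. Both selectins lay below the median of all genes in that comparison, -1.52, and Vcam1 lay above it. Sele was at 0.577, 0.444 and 0.557% of the reference pair in Sting-/- DOX, against 5.30, 4.37 and 4.76% in WT DOX and 1.02, 1.24 and 1.70% in WT saline. Its groups were separate, Sting-/- DOX being the lowest and WT DOX the highest, with a log2 difference of -2.64 between Sting-/- DOX and WT DOX (adjusted p = 1.64e-11) and of -1.55 between Sting-/- DOX and WT saline (adjusted p = 7.75e-09). The median of all genes between Sting-/- DOX and WT saline was -1.26. Selp was at 1.31, 1.55 and 1.46% in Sting-/- DOX, against 9.25 to 12.1% in WT DOX and 0.376, 0.269 and 0.0887% in WT saline. Sting-/- DOX lay between the other 2 groups without overlap, and the log2 difference from WT DOX was -2.62 (adjusted p = 9.63e-12). Against WT saline the tested difference of Selp was -0.031 (adjusted p = 0.782), but it was 0.59 with a pseudocount of 0.5 FPKM and 1.88 with 0.1 FPKM, and it was -0.30 with 20 endothelial genes as the reference (adjusted p = 0.0108). In FPKM the ratio of the mean percentages of the pair was 5.88.

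Vcam1 was at 13.6, 12.7 and 11.7% of the pair in Sting-/- DOX, against 28.6, 29.1 and 27.2% in WT DOX and 14.1, 12.3 and 12.4% in WT saline. WT DOX thus stood alone above 2 overlapping groups. Between Sting-/- DOX and WT DOX nearly every gene was lower on this scale, with a median of -1.52 over all genes. The log2 difference of Vcam1 there was -1.18 (adjusted p = 8.26e-10), above that median and opposite in sign to the 0.60 found in FPKM. Between Sting-/- DOX and WT saline it was -0.14 and did not pass (adjusted p = 0.0704), but it passed without the first Sting-/- DOX library, at -0.19 (adjusted p = 0.0242), with Cdh5 alone as the reference, at -0.27, and with 20 endothelial genes as the reference, at -0.41.

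Icam1 stood above WT saline in both doxorubicin groups on this scale too. It was at 20.5, 19.1 and 17.1% of the pair in Sting-/- DOX, against 25.9, 19.9 and 22.6% in WT DOX and 9.29, 10.3 and 10.2% in WT saline. Both doxorubicin groups lay above every WT saline library, by 0.75 for Sting-/- DOX (adjusted p = 2.48e-06) and 1.06 for WT DOX (adjusted p = 2.88e-07), and their own ranges overlapped. The difference of -0.32 between Sting-/- DOX and WT DOX passed (adjusted p = 0.00424), but not with Pecam1 alone as the reference, at -0.077 (adjusted p = 0.423). The value of -0.32 lay above the median of all genes in that comparison, -1.52.

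Icam2 was the 1 member above its WT DOX level on this scale, at 58.6 ± 1.88% of the pair in Sting-/- DOX, 46.7 ± 0.668% in WT DOX and 43.7 ± 3.03% in WT saline (SD, n = 3 each). Sting-/- DOX did not overlap the wild-type groups, at 0.30 against WT DOX (adjusted p = 0.000172) and 0.40 against WT saline (adjusted p = 1.45e-05). The difference from WT DOX did not pass with Cdh5 alone, at 0.061, or with 20 endothelial genes, at 0.019. Between WT DOX and WT saline it was 0.094 (adjusted p = 0.169), and it passed without the second WT saline library, at 0.15, and with Cdh5 alone, at 0.20.

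Relative to the pair, the Jam genes were lower than in WT saline in both doxorubicin groups. In FPKM both were higher in Sting-/- DOX than in WT saline, as given above. Jam2 was at 44.9 ± 0.608% of the pair in Sting-/- DOX, 60.8 ± 1.75% in WT DOX and 88.1 ± 1.32% in WT saline, 3 steps without overlap. Its log2 difference was -0.44 between Sting-/- DOX and WT DOX (adjusted p = 5.92e-07), -0.97 between Sting-/- DOX and WT saline (adjusted p = 1.11e-10) and -0.52 between WT DOX and WT saline (adjusted p = 5.96e-07). Jam3 was at 11.9 ± 1.09% in Sting-/- DOX, 14.7 ± 0.528% in WT DOX and 19.1 ± 0.651% in WT saline, in the same order and also without overlap. Its difference of -0.40 between Sting-/- DOX and WT DOX (adjusted p = 0.000102) did not pass with Pecam1 alone, at -0.15 (adjusted p = 0.0599). Both Jam genes lay above the median of all genes in Sting-/- DOX on this scale. That median was -1.52 against WT DOX and -1.26 against WT saline.

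**Figure D3:**
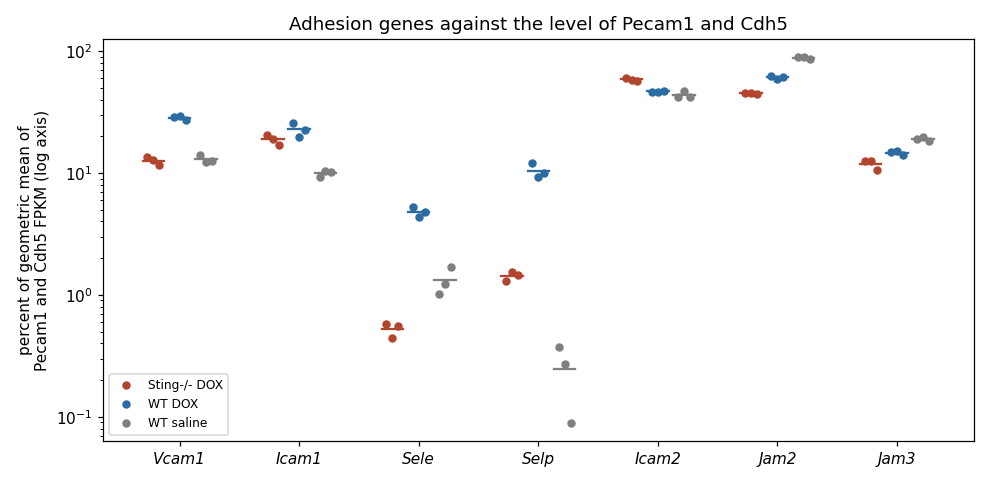
Each adhesion gene as a percentage of the geometric mean of Pecam1 and Cdh5 FPKM (log axis), with points for libraries and lines for group means. Vcam1, Sele and Selp stand highest in WT DOX, Icam2 in Sting-/- DOX, and Jam2 and Jam3 in WT saline.

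Taking the 7 genes as a pool, their summed FPKM averaged 284.7 in Sting-/- DOX, 104 in WT DOX and 98.2 in WT saline, and its make-up differed between the groups. Icam2 held 39.4% of the sum in Sting-/- DOX, 24.8% in WT DOX and 24.9% in WT saline. Jam2 held 30.2% in Sting-/- DOX and 32.3% in WT DOX, against 50.3% in WT saline, and was the largest term in every wild-type library. The selectins together with Vcam1 took their largest shares in WT DOX: Vcam1 held 8.48% in Sting-/- DOX, 15.02% in WT DOX and 7.38% in WT saline, and Selp held 0.968% in Sting-/- DOX, 5.52% in WT DOX and 0.139% in WT saline. Icam1 held 12.7% in Sting-/- DOX and 12.1% in WT DOX, with overlapping ranges, against 5.66% in WT saline.

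By level, the order in Sting-/- DOX was Icam2, Jam2, Icam1, Vcam1, Jam3, Selp and Sele, and of these neighbours the ranges of Vcam1 and Jam3 alone overlapped. In WT DOX it was Jam2, Icam2, Vcam1, Icam1, Jam3, Selp and Sele, and in WT saline Jam2, Icam2, Jam3, Vcam1, Icam1, Sele and Selp, with no overlap between neighbours in either group. Icam1 thus passed Vcam1 in Sting-/- DOX, Jam3 stood above Vcam1 in WT saline alone, and Selp stood below Sele in WT saline alone.

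**Figure D4:**
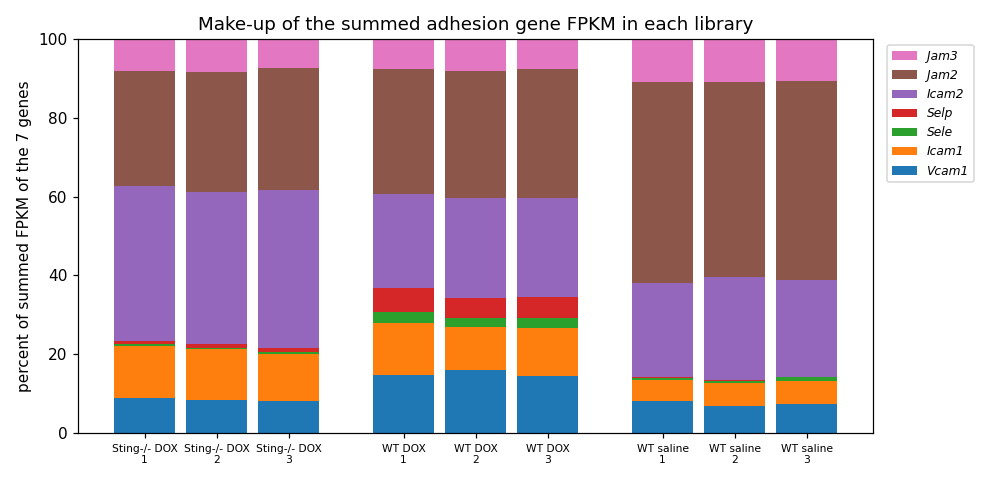
Share of each gene in the summed FPKM of the 7 adhesion genes, with 1 bar per library (percent, bars end at 100). Jam2 is the largest block in the wild-type libraries and Icam2 in the Sting-/- DOX libraries, and the Selp and Sele blocks are widest in WT DOX.

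For each member, the other genes were ranked by how closely their centred log2(FPKM + 1) values followed it over the 9 libraries, as the root mean square difference among 12112 genes. The nearest were C1qa (0.039) and Cnn2 (0.053) for Icam1, Ssr1 (0.062) and Rpl36a (0.069) for Vcam1, and Prss35 (0.059) and Dhrs3 (0.064) for Icam2. C1qa encodes a chain of complement C1q, which macrophages make. Epas1 (0.061) and Mtss2 (0.063) were nearest to Jam2, and Nudt14 (0.058) and Ptpdc1 (0.063) to Jam3. The selectins had less close neighbours, with Enah and Nop58 (both 0.11) for Sele and Myc (0.096) and Plaur (0.15) for Selp. Since the libraries fall into 3 groups, the measure mainly compares 3 group means.

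The leukocyte ligands of these molecules were read as a list of 13 genes, of which 12 were tested. The FPKM counts of this and the later lists stand beside the shares of all genes called. These were 45.3% higher and 21.5% lower in WT DOX against WT saline, and 54.1% and 29.7% in Sting-/- DOX against WT DOX. In Sting-/- DOX against WT saline they were 63.0% and 25.9%. In WT DOX against WT saline, 11 of the 12 ligand genes passed as higher and 1 did not pass, with a median of 2.02 against 0.13 over all genes. The integrin chain Itgam, part of the ICAM-1 receptor Mac-1, averaged 9.52 ± 0.871 FPKM in Sting-/- DOX, 30.4 ± 1.79 in WT DOX and 2.73 ± 0.372 in WT saline. Its log2 difference was 3.08 for WT DOX against WT saline (adjusted p = 3.59e-11) and -1.58 for Sting-/- DOX against WT DOX (adjusted p = 3.27e-09). In Sting-/- DOX against WT DOX, 9 of the 12 passed as lower, 1 as higher and 2 did not pass, with a median of -0.40 against 0.25 over all genes. The 1 higher gene was Cd44, a hyaluronan receptor that also serves as a ligand of E-selectin, at 0.43 (adjusted p = 2.68e-05). Selplg, which encodes PSGL-1, averaged 18.4 ± 1.504 FPKM in Sting-/- DOX, 24.8 ± 1.04 in WT DOX and 4.97 ± 0.451 in WT saline, and was higher in Sting-/- DOX than in WT saline by 1.70 (adjusted p = 2.04e-10). Against WT saline, 11 of the 12 passed as higher in Sting-/- DOX and Glg1, a ligand of E-selectin, passed as lower, with a median of 1.06 against 0.49.

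Marker genes of the leukocytes themselves are given beside these ligands. The summed FPKM of 7 neutrophil genes ranged from 84.9 to 102 in Sting-/- DOX, 234 to 306 in WT DOX and 6.47 to 7.25 in WT saline, the same order of groups as for Selp. Of these 7 genes, 6 passed as lower in Sting-/- DOX than in WT DOX and 1 did not pass. For 12 macrophage and monocyte genes the sums were 2978 to 3096 FPKM in Sting-/- DOX, 1463 to 1651 in WT DOX and 496 to 551 in WT saline, the same order of groups as for Icam1 and Vcam1, and 9 of the 12 passed as higher and 2 as lower in Sting-/- DOX than in WT DOX. For 6 pan-leukocyte genes they were 680 to 720 FPKM in Sting-/- DOX, 633 to 662 in WT DOX and 86.6 to 95.7 in WT saline. Gene by gene, 2 of these 6 passed as higher and 3 as lower in Sting-/- DOX than in WT DOX, with a median of -0.17 against 0.25 over all genes, so the sum and the median differed in sign. The mesothelial sum over 10 genes was 111 to 117 FPKM in Sting-/- DOX, 8.72 to 12.4 in WT DOX and 4.63 to 7.25 in WT saline. None of the genes of these lists was at 0 in all 3 libraries of a group. The part of these cells in the Icam1, Vcam1 and Selp values was not tested.

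Among cytokines and receptors that can induce the adhesion genes, 11 of 12 tested genes were higher in WT DOX than in WT saline, with a median of 1.06 against 0.13. Il1b, which encodes an inducer of E-selectin, averaged 7.97 ± 0.240 FPKM in Sting-/- DOX, 22.3 ± 2.34 in WT DOX and 2.23 ± 1.02 in WT saline. Its log2 difference was 2.90 for WT DOX against WT saline (adjusted p = 5.94e-08) and -1.37 for Sting-/- DOX against WT DOX (adjusted p = 2.22e-05). The 12th gene, the interferon-gamma receptor chain Ifngr2, was lower, at -0.18. Between Sting-/- DOX and WT DOX the list divided, with 5 higher, 5 lower and 2 not past the threshold, and a median of -0.13 against 0.25. The 2 not past it were Tnf at -0.18 (adjusted p = 0.176) and Il6st at -0.072 (adjusted p = 0.103). Tnf, which encodes the other inducer named above, averaged 2.13 ± 0.507 FPKM in Sting-/- DOX, 2.52 ± 0.176 in WT DOX and 0.690 ± 0.139 in WT saline. The higher genes included the receptors Ifngr1 at 1.25, Il1r1 at 1.23 and Ltbr at 0.87, and the lower ones included Ifngr2 at -1.49 and Il6ra at -1.20. Il1r1, the receptor of IL-1, averaged 25.9 ± 1.84 FPKM in Sting-/- DOX, 10.4 ± 0.480 in WT DOX and 3.70 ± 0.215 in WT saline, opposite to its ligand gene in the order of the doxorubicin groups. Against WT saline, 9 of the 12 were higher in Sting-/- DOX and 1 lower, with a median of 1.55 against 0.49.

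NF-kB subunits and feedback genes, the transcriptional arm downstream of these receptors, were mostly higher in Sting-/- DOX than in WT DOX when read in FPKM. Of 15 genes tested, 12 passed as higher in WT DOX than in WT saline and 3 did not pass, with a median of 0.36 against 0.13. Between Sting-/- DOX and WT DOX, 12 were higher, 1 was lower and 2 did not pass, with a median of 0.78 against 0.25. Relb averaged 22.9 ± 0.422 FPKM in Sting-/- DOX, 8.07 ± 0.233 in WT DOX and 5.55 ± 0.117 in WT saline, and Traf1 averaged 7.09 ± 0.425 FPKM in Sting-/- DOX, 2.02 ± 0.278 in WT DOX and 0.823 ± 0.0416 in WT saline. The 1 lower gene was the subunit Rel, at -0.56 (adjusted p = 2.66e-05). Once Pecam1 and Cdh5 were subtracted, all 15 passed as lower in Sting-/- DOX than in WT DOX, beside 93.4% of all genes. Their median was -0.997 against -1.52 over all genes. Against WT saline, in FPKM, 12 were higher in Sting-/- DOX and 2 lower, with a median of 1.25 against 0.49.

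A list of shear and quiescence factors, which also holds the angiopoietins Angpt1 and Angpt2, divided in WT DOX, and most of its genes were higher in Sting-/- DOX. In WT DOX against WT saline, 2 of 10 genes were higher and 4 lower, with a median of -0.13 against 0.13, and 9 were higher and 1 lower in Sting-/- DOX than in WT DOX, with a median of 1.95 against 0.25. Klf2, a flow-induced factor known to restrain Vcam1 and Sele, averaged 132 ± 0.1401 FPKM in Sting-/- DOX, 25.3 ± 1.49 in WT DOX and 32.2 ± 1.997 in WT saline. It was lower in WT DOX than in WT saline at -0.34 (adjusted p = 0.000142) and higher in Sting-/- DOX than in WT DOX at 2.33 (adjusted p = 1.64e-12). Relative to Pecam1 and Cdh5 the difference between Sting-/- DOX and WT DOX was 0.56 (adjusted p = 1.85e-06). On that scale 5 of the 10 genes were higher and 2 lower, beside 3.27% and 93.4% of all genes, with a median of 0.18. Standing above the pair was not particular to this list. Of the 18 endothelial marker genes tested there, 11 were higher and 1 lower, with a median of 0.30. Angpt2, which primes endothelium for inflammation, averaged 8.24 ± 0.632 FPKM in Sting-/- DOX, 5.26 ± 0.807 in WT DOX and 1.39 ± 0.282 in WT saline. It is not a quiescence gene, yet it was 1 of the 2 genes counted as higher in WT DOX and 1 of the 9 in Sting-/- DOX. The other of those 2 was Nos3, higher in WT DOX than in WT saline by 0.39 (adjusted p = 6.12e-05). Relative to the pair, Nos3 was higher there by 0.41 (adjusted p = 3.19e-05). Relative to the pair, Angpt2 was higher in WT DOX than in WT saline by 1.41 (adjusted p = 2.83e-08) and lower in Sting-/- DOX than in WT DOX at -1.21 (adjusted p = 1.74e-08). Angpt1, its counterpart from perivascular cells, was the 1 gene of the list lower in Sting-/- DOX than in WT DOX, at -1.51 (adjusted p = 1.34e-10).

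Other junction and immunoglobulin-family adhesion genes divided in the same comparisons. Between WT DOX and WT saline, 6 of the 14 tested genes were higher and 3 lower, with a median of 0.16, close to the 0.13 of all genes. Between Sting-/- DOX and WT DOX, 9 were higher and 3 lower, with a median of 0.74 against 0.25. Relative to Pecam1 and Cdh5, 2 were higher and 10 lower, beside 3.27% and 93.4% of all genes. The median was -1.03 against -1.52 over all genes. The endothelial tight-junction gene Cldn5 was higher by 2.64 and Esam, an adhesion molecule of endothelial contacts, by 2.30, and these were the 2 genes higher relative to Pecam1 and Cdh5, by 0.87 and 0.53. Both are also endothelial marker genes, of which 11 of 18 tested were higher on that scale. Cd99l2 was lower at -1.09 and Cxadr, a junctional receptor that cardiomyocytes also carry, at -0.65. The 7 tested genes for sheddases and for enzymes that build selectin ligands had a median of 0.45 in WT DOX against WT saline, with 0.13 over all genes, and 5 were higher and 1 lower. Gcnt1, which extends the glycans that selectins bind, averaged 3.70 ± 0.222 FPKM in Sting-/- DOX, 4.22 ± 0.754 in WT DOX and 0.650 ± 0.105 in WT saline. In Sting-/- DOX against WT DOX, 5 of these 7 were higher and 2 did not pass, with a median of 0.46 against 0.25. Relative to Pecam1 and Cdh5 all 7 were lower, beside 93.4% of all genes, with a median of -1.31 against -1.52. The genes higher in FPKM included the sheddases Adam10 at 0.90 and Adam17, which cleaves VCAM-1 from the cell surface, at 0.52.

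**Figure D5:**
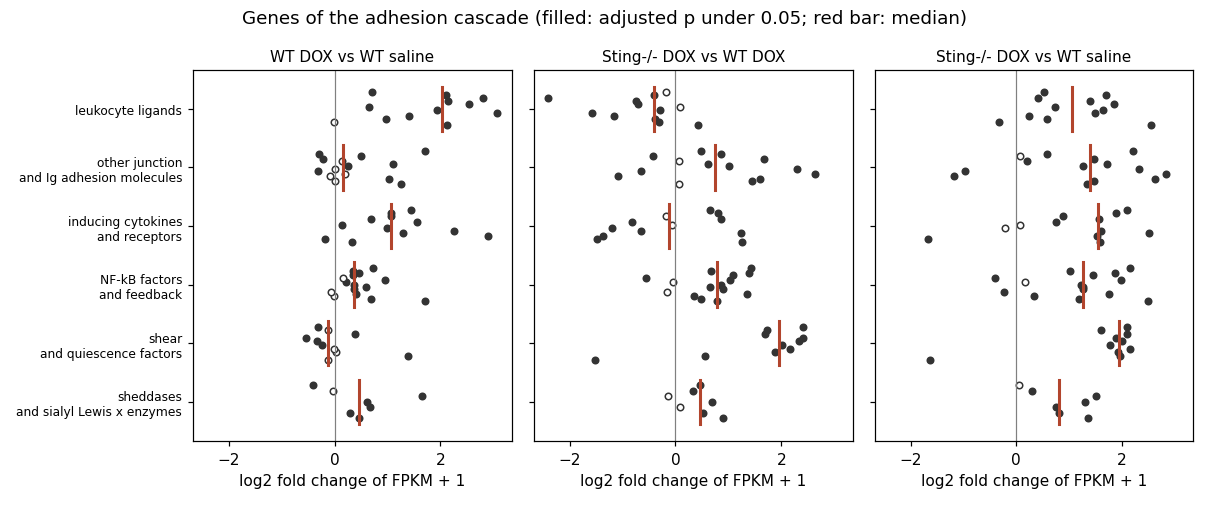
Log2 fold change of FPKM + 1 for genes of 6 lists in 3 comparisons (panels), with filled points where the adjusted p was under 0.05 and red bars for the median of each list. The leukocyte ligands lie mostly right of 0 in WT DOX against WT saline (median 2.02) and mostly left of 0 in Sting-/- DOX against WT DOX (median -0.40), while the shear and quiescence factors lie near 0 and then mostly right (medians -0.13 and 1.95).

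Marker lists for vessel segments were read because the members differ in where they are expressed. All 7 capillary genes were lower in WT DOX than in WT saline, with a median of -0.51 against 0.13 over all genes, and Jam2 was lower beside them at -0.54. In Sting-/- DOX against WT DOX, all 7 capillary genes, all 6 venous genes and all 9 arterial genes were higher, with medians of 2.66, 1.31 and 1.75 against 0.25 over all genes. P-selectin and E-selectin are typical of venules, and the summed FPKM of the 6 venous genes was 160 to 165 in Sting-/- DOX, 33.1 to 34.9 in WT DOX and 36.1 to 36.5 in WT saline. The doxorubicin groups thus stood in the opposite order for the selectins in FPKM. Relative to Pecam1 and Cdh5, 5 of the 6 venous genes were lower and 1 higher in Sting-/- DOX than in WT DOX. Beside them, 93.4% of all genes were lower and 3.27% higher. The venous median was -0.46 against -1.52 over all genes, and both selectins were lower too. The part of vessel make-up in the values of the members was not tested.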

How the data were processed

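Groups and replicate numbers came from the sample titles. The authors deposited FPKM values for the same 16873 gene IDs in each library. Per the submitters' processing notes, RSEM 1.2.12, Bowtie2 2.2.5 and HISAT2 2.0.4 were used with build GRCm39, in roles that are not given; the labels' protocols name a QIAGEN extraction kit and an MGI library kit. No count model was used, since FPKM keeps no read numbers. Depth was approximated from the steps between low values of 2028 single-transcript genes, of which 47.9% to 63.0% lay within 0.1 fragments of a whole number, so no counts were recovered.

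Of the IDs, 16825 matched a symbol in a RefSeq table of GRCm38.p6, used for names. Promoter sequences came from RefSeq on that build, which is not the build of the files; 3 members had one.

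Tests used limma 3.58.1 in R 4.3.3 on log2(FPKM + 1) (trended variance prior, all 9 libraries in 1 fit, 6 residual degrees of freedom), for genes averaging 1 FPKM or more, two-sided, with Benjamini-Hochberg adjustment over all 12485 genes (12483 for values relative to Pecam1 and Cdh5) and 0.05 as the threshold. With 3 libraries a group, the smallest p of an exact permutation test is 0.1. The fit was tested on simulated data. Summaries and figures were made in Python 3.11.15 (matplotlib 3.10.9, numpy 2.4.6, pandas 2.3.3).

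The members, gene lists and motifs were chosen with earlier results of these data known. Named genes were the members, Pecam1, Cdh5, Sting1, the 2 genes nearest to each member, and up to 3 genes per pathway list, direction and comparison. Tnf and Il6st were named besides, as the cytokine-list genes that did not pass between Sting-/- DOX and WT DOX. Cell type lists are given as counts, medians and sums, with single markers where named. Not every gene that this rule takes is reported here. Alternatives covered the pseudocount, the filter, the scaling, the variance prior, sample weights, the samples in the fit, the reference genes, a replicate block and leaving out each library.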

Additional observations from a re-analysis of the deposited data

How the results depend on the processing

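Over all alternatives, the counts of members called kept within 1.5 times their value in 117 of 120 cases in FPKM and 116 of 120 relative to Pecam1 and Cdh5, and single values kept direction and call in 522 of 534 and 399 of 414 cases. A filter at a mean of 5 FPKM removes Sele and Selp and left 2 members higher in WT DOX than in WT saline on both scales and 0 lower in Sting-/- DOX than in WT DOX. Relative to Cdh5 alone, or to the endothelial list, 0 members were higher in Sting-/- DOX than in WT DOX, and with that list 5 were lower in Sting-/- DOX than in WT saline. Quantile normalization gave 1 member lower in Sting-/- DOX than in WT saline, Sele at -0.33. Median-ratio scaling turned Icam2 to -0.17 and Pecam1 to -0.16 in WT DOX against WT saline. Selp relative to the pair, Sting-/- DOX against WT saline, became 1.88 and 0.59 with pseudocounts of 0.1 and 0.5 FPKM. The cause of these changes was not tested, other than that of the filter. Leaving out each library gave 4 to 5 members higher in WT DOX than in WT saline on both scales, 6 to 7 higher in Sting-/- DOX than in WT saline, and 3 to 4 lower there relative to the pair. Other scalings moved the median of all genes to -0.088 (median ratio) and -0.094 (quantile) in WT DOX against WT saline, -0.054 and 0.018 in Sting-/- DOX against WT DOX, and -0.026 and 0.034 in Sting-/- DOX against WT saline. The share of calls that were higher was 67.8%, 64.6% and 70.9% in those comparisons, against 40.9%, 46.3% and 48.5% by median ratio and 40.2%, 51.3% and 51.6% by quantile. Same-numbered libraries did not deviate together (r across genes -0.032 to 0.10), and the labels name no shared litter or batch. With a replicate block, 4 members were lower in Sting-/- DOX than in WT saline relative to the pair, against 3 without it, through Vcam1 at -0.14 (adjusted p = 0.0424), and the block changed no other call of a member. The depth limits Sele in Sting-/- DOX and both selectins in WT saline, where few fragments stand behind each value.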
